A study of Mus musculus with 4 samples.

Results

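The resistin family is a small set of secreted, cysteine-rich proteins, and its mouse genes are Retnla, Retnlb, Retnlg and Retn. These 4 genes, listed by symbol in both deposited tables, are described here out of 23284 genes, in lung RNA of C57BL/6 mice. There were 4 groups of 1 library each: Il22 knockout (IL22-/-) mice after house dust mite (HDM), wild-type mice after HDM, wild-type mice given recombinant IL-22 into the trachea, and wild-type mice given phosphate-buffered saline (PBS) the same way. HDM is an allergen that models asthma, and those mice were both sensitized and challenged with it. The HDM lungs were collected 48 h after the final exposure and the others 24 h after dosing. No group of knockout mice without HDM is among the samples, and the labels leave sex, age and any pooling of animals unstated.

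RELM-alpha, the product of Retnla, was first found in the fluid of allergic mouse lungs. In mice it is made by alternatively activated macrophages, airway epithelium and eosinophils when interleukin-4 or interleukin-13 acts through the transcription factor STAT6. RELM-beta (Retnlb) is best known from goblet cells of the gut, RELM-gamma (Retnlg) from neutrophils and bone marrow, and resistin (Retn) from mouse fat cells. Human genomes carry RETN and RETNLB but no direct counterpart of Retnla or Retnlg.

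The values are FPKM, which scale each gene's fragments by transcript length and sequencing depth, so levels of different genes can be ordered within a library. Estimated depth was 27.3 M reads for the knockout HDM library and 24.97 M for the wild-type HDM library, and 28.9 M for the IL-22 library and 19.99 M for the PBS library. All 4 libraries had the defining markers of lung, with Sftpc, the surfactant protein of alveolar type II cells, at 30749 to 37820 FPKM and Scgb1a1, the secretoglobin of club cells, at 112693 to 141280 FPKM. Il22 was listed at 0 in the knockout HDM library against 0.362 FPKM in the wild-type HDM library, and at 0 in the IL-22 and PBS libraries. Differences are of log2(FPKM + 1) between the libraries of 1 table, which understates those of low genes. Genes with a mean of 1 FPKM or more are termed measured, and those whose difference also reaches 1 in size are termed called. With 1 library a group there is no replicate spread and no p-value. Intervals are 95% and exact, from estimated reads, and cover counting error only. They compare libraries, not genotypes or treatments. Whole lung was sequenced, so fewer cells of a type and less RNA per cell cannot be told apart.

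Retnlb, Retnla and Retnlg lie side by side on the plus strand of chromosome 16 of mm10, at 48816856 to 48818892, 48842551 to 48844461 and 48872621 to 48874496. Retn lies alone on chromosome 8, at 3655770 to 3660110. All 4 genes are protein coding, and their last coding exon, which encodes the cysteine-rich tail that defines the family, is given from GENCODE M21 because it shows how close the members are. It spans chr16:48844174-48844298 in Retnla, chr16:48818628-48818752 in Retnlb, chr16:48874217-48874341 in Retnlg and chr8:3657250-3657383 in Retn. Sequences run 5′ to 3′, and capitals mark in-frame cysteine codons.
Retnla: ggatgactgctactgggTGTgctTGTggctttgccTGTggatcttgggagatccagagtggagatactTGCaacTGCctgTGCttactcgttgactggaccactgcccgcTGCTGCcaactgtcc
Retnlb: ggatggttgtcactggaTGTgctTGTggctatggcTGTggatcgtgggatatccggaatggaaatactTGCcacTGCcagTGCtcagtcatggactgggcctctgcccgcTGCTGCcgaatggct
Retnlg: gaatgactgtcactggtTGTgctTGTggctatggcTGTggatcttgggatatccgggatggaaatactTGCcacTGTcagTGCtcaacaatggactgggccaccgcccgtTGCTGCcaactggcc
Retn: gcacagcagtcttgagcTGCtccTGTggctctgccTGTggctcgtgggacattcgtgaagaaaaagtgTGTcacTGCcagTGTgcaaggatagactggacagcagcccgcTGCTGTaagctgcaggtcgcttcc

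Each exon held 8 cysteine codons, at the same places in all 4 genes. The exon is 125 bases long in the chromosome 16 genes, which shared 94 of those bases, or 75.2%, and 134 bases long in Retn. Over the whole coding sequence Retnla and Retnlg were 84.2% identical, Retnlb and Retnlg 81.4% and Retnla and Retnlb 74.8%. Retn was 67.5 to 69.5% identical to the others. The longest identical stretch of any pair of transcripts was 49 bases, between Retnla and Retnlg, and 8.61% of all 25-base stretches of Retnlg also occur in Retnla. For Retnlb and Retnlg the longest stretch was 26 bases and for the other pairs 10 to 15 bases. Neither read length nor the handling of reads with several matches is stated, so Retnlg is taken as uncertain wherever Retnla is very abundant.

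The family was dominated by Retnla in every library, and the order of its smaller members differed only in the IL-22 library. Retnla made up 99.2% of the family's summed FPKM in the knockout HDM library and 99.5% in the wild-type HDM library. Its share was 93.6% in the IL-22 library and 91.0% in the PBS library. Retnlg stood second in the knockout HDM, wild-type HDM and PBS libraries, and Retn came next there. In the IL-22 library Retn, at 18.1 FPKM, stood above Retnlg, at 12.7 FPKM. Retnlb was last in all 4 libraries.

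**Figure D1:**
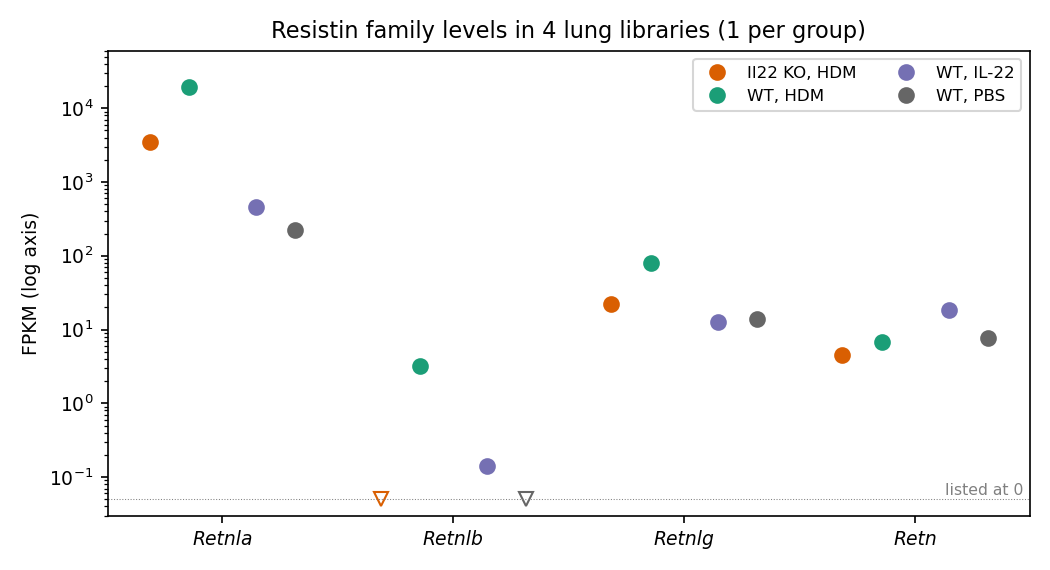
FPKM (log axis) of the 4 resistin family genes in the knockout HDM, wild-type HDM, IL-22 and PBS libraries, 1 point per library and so no error bars; open triangles mark values listed at 0. Retnla spans 221 to 19372 FPKM, while Retn stays between 4.47 and 18.1 FPKM.

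The HDM pair sets allergic lungs without IL-22 against allergic lungs with it. The 3 members on chromosome 16 were lower in the knockout HDM library, Retnla by 5.52-fold and Retnlg by 3.59-fold, with Retnlb listed at 0. Retn was 1.51-fold lower and did not reach the size rule. All 4 members were measured, and 3 were called lower, where 2.42% of all 13285 measured genes were called lower, 0.549% higher and 2.97% either way. The median difference of all measured genes was 0.03. Retnlb passed the filter only through the wild-type library, so its call carries no weight of its own.

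Retnla was at 3511 FPKM in the knockout HDM library and at 19372 FPKM in the wild-type HDM library. The difference was -2.46, the 46th lowest of the measured genes. The ratio of estimated reads was 0.181, with a counting interval of 0.179 to 0.183. In the wild-type HDM library only Scgb1a1 and Sftpc had a higher FPKM, and Retnla took 2.84% of the library's total. In the knockout HDM library it took 0.520% and ranked 9th.

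Retnlg was at 22.1 FPKM in the knockout HDM library and at 79.5 FPKM in the wild-type HDM library, about 238 and 780 reads. The difference was -1.80 and the ratio of reads 0.279 (0.240 to 0.323). Retnlg thus lay lower in the knockout by less than Retnla did on the fold scale. Its level was 0.631% of that of Retnla in the knockout HDM library and 0.410% in the wild-type HDM library. The gap of 57.4 FPKM in Retnlg between these libraries was 0.362% of the gap of 15861 FPKM in Retnla. In the IL-22 and PBS libraries, where Retnla was far less abundant, Retnlg was at 2.81% and 6.37% of Retnla. Whether reads of Retnla were placed at Retnlg was not tested.

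Retnlb had 0 reads in the knockout HDM library and about 39 reads, or 3.17 FPKM, in the wild-type HDM library. The 39 reads have a counting interval of 27.7 to 53.3. A floor of 3 reads, set for a count of 0, is 0.221 FPKM at the depth of the knockout library. The exact upper limit, 3.69 reads, lies above that floor. The ratio of reads was 0 with an upper limit of 0.0907. The gene shares no stretch of 25 bases with Retnla.

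Retn was at 4.47 FPKM in the knockout HDM library and at 6.76 FPKM in the wild-type HDM library, about 115 and 159 reads. The difference was -0.50 and the ratio of reads 0.661 (0.516 to 0.846). The interval of counting error lies below 1, but the spread between animals was not measured.

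**Figure D2:**
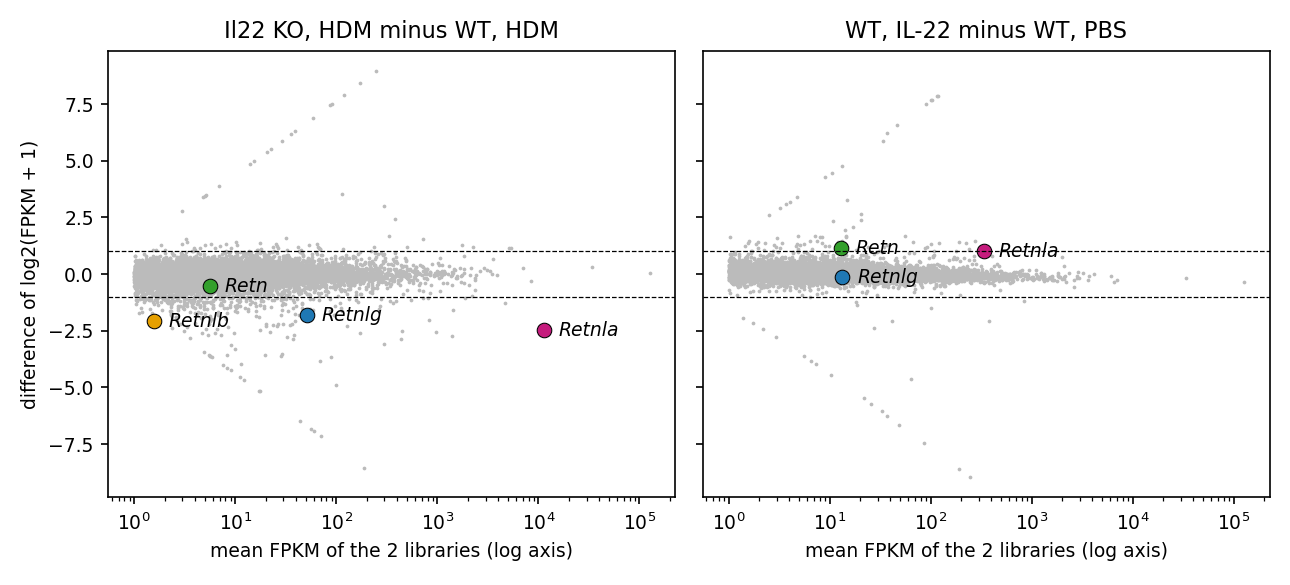
Difference of log2(FPKM + 1) against mean FPKM (log axis) for all measured genes (grey, 13285 in the HDM pair on the left and 13233 in the IL-22 and PBS pair on the right), with the family in colour and dashed lines at a difference of 1 in size. Grey points along the outer edges are genes at or near 0 in 1 library; Retnla, Retnlb and Retnlg lie below the lower line on the left, and Retnla and Retn at or above the upper line on the right.

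The other comparison asks what IL-22 placed in the airways does without allergen. Retnla and Retn were higher in the IL-22 library, by 2.05-fold and 2.37-fold, while Retnlg lay at 0.905 of its PBS level and Retnlb was near the limit of detection. Of the 4 members 3 were measured and 2 were called higher, where 0.597% of the 13233 measured genes were called higher, 0.189% lower and 0.786% either way. The median of all measured genes was 0.04.

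Retnla was at 454 FPKM with IL-22 and 221 FPKM with PBS, a difference of 1.04. The ratio of reads was 2.05 (1.95 to 2.17). This value lies at the edge of the size rule, and with the libraries scaled to a median ratio of 1 it was 0.99 and no longer called.

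Retn was at 18.1 FPKM with IL-22 and 7.65 FPKM with PBS, about 491 and 144 reads. The difference was 1.14 and the ratio of reads 2.36 (1.96 to 2.86). It was called under all 4 other scalings and pseudocounts run, at 1.10 to 1.24.

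Retnlg was at 12.7 FPKM with IL-22 and 14.1 FPKM with PBS, about 145 and 111 reads. The difference was -0.13, and the interval of the read ratio, 0.701 to 1.17, includes 1. A difference could not be detected at this depth. For Retnlb an estimated 2 reads with IL-22 stood against 0 with PBS, and it was not measured.

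Set side by side, without a fold because the tables may have been normalized separately, Retnla was at 3511 FPKM in the knockout HDM library, 19372 in the wild-type HDM library and 221 in the PBS library. The knockout HDM level thus lay between the others for Retnla, and also for Retnlg, at 22.1, 79.5 and 14.1 FPKM. For Retn it was the lowest, at 4.47, 6.76 and 7.65 FPKM. The wild-type HDM library was the only library with more than 2 estimated reads of Retnlb.

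The genes that turn on Retnla in macrophages and epithelium start with interleukin-4 and interleukin-13, which bind receptors that share Il4ra and signal through JAK kinases to STAT6. Among 7 type 2 ligands and alarmins only Il33 and Tslp were measured in the HDM pair. Of these Il33, an epithelial alarmin, was at 58.2 FPKM in the knockout HDM library against 167 FPKM in the wild-type HDM library and was the only called member. Il13 was listed at 0 in the knockout HDM library against 0.757 FPKM in the wild-type HDM library, and Il4 was at 0.0913 against 0.205 FPKM. Il9 and Il25 were listed at 0 in both.

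The receptors and the signalling genes themselves differed little. Of 10 measured genes of the IL-4 and IL-13 receptor and STAT6 pathway 1 was lower and none higher in the knockout HDM library, with a median difference of -0.18. Il4ra was at 18.3 FPKM in the knockout HDM library against 20.9 FPKM in the wild-type HDM library, and Stat6 at 33.3 against 32.1 FPKM. The member called lower was Socs1, a feedback inhibitor of JAK kinases, at 1.799 against 5.19 FPKM. With IL-22 none of the 10 was called, and the median was 0.04.

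Of 9 measured transcription factors tied to the family, Spdef alone was called lower in the knockout HDM library, at 1.44 FPKM against 4.81 FPKM in the wild-type HDM library. Spdef directs goblet cell differentiation. Cebpa, a C/EBP factor of fat and myeloid cells, was at 41.8 against 34.2 FPKM, and Cebpb at 46.9 against 58.8 FPKM. None of the 9 was called in the IL-22 and PBS pair, with medians of -0.32 and 0.01 for the HDM pair and this pair.

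Most genes listed for alternatively activated macrophages were, like Retnla, lower in the HDM pair. The list was chosen with earlier results of these data known, so its count is a description only. Of 12 measured, 11 were called lower in the knockout HDM library and 0 higher, and their median difference was -2.41. Of these 11, Ccl24 and Alox15 passed the filter only through the wild-type HDM library. Ear11, an eosinophil-associated ribonuclease, was at 5.71 FPKM in the knockout HDM library against 195 FPKM in the wild-type HDM library. Arg1, the arginase of these macrophages, was at 2.04 against 17.6 FPKM. Chi3l4, a chitinase-like protein now named Chil4, was at 63.2 against 535 FPKM. Ccl22 was the measured member that was not called, at 10.1 against 20.4 FPKM. In the IL-22 and PBS pair none of 11 measured members was called and the median was 0.06, whereas Retnla was higher by 1.04. Arg1 was at 3.09 FPKM with IL-22 against 1.84 FPKM with PBS, and Chi3l3 at 186 against 195 FPKM.

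Lists for other possible sources of Retnla, some of which share genes, are given next. Goblet cell and mucus genes were called lower in 8 of 11 measured members (median -1.68), with Muc5ac, a gel-forming mucin, at 0.963 FPKM in the knockout HDM library against 9.43 FPKM in the wild-type HDM library. All 14 of this list that were found, measured or not, summed to 505 against 1790 FPKM, and Tff3 was at 0 in both. Of the 8 calls, those of Muc5ac, Tff1 and Itln1 passed the filter only through the wild-type HDM library. Of 4 measured eosinophil markers, Prg2, at 0.173 against 2.83 FPKM, and Alox15, at 0.363 against 5.35 FPKM, were called lower. Both passed the filter only through the wild-type HDM library, so this count carries no weight, and Siglec5 was at 4.35 against 4.06 FPKM. The defining granule protein genes Epx and Prg3 were at 0 in the knockout HDM library and at 0.0161 and 0.0536 FPKM in the wild-type HDM library. Alveolar macrophage markers were called lower in 3 of 11 (median -0.79), of which Mrc1 and Chi3l3 are also in the alternatively activated list. The eosinophil marker Alox15 is in that list too. Marco, a scavenger receptor of these cells, was at 4.43 against 3.07 FPKM. Monocyte and interstitial macrophage markers were called lower in 6 of 13 (median -0.94), none of them in another list. No club cell or alveolar type II marker was called among 9 measured in each list. The part of these cell types in the level of Retnla was not tested.

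With IL-22, goblet cell and mucus genes were called higher in 2 of 7 measured members (median 0.42). Clca3, a secreted goblet cell protein now named Clca1, was at 27.9 FPKM with IL-22 against 5.79 FPKM with PBS, and Bpifb1, a secreted defence protein, at 324 against 152 FPKM. Monocyte and interstitial macrophage markers were called higher in 3 of 13 (median 0.36), with C1qb, a complement gene, at 129 against 56.0 FPKM. All 11 alveolar macrophage markers lay below 0 and none was called (median -0.20). Of the 9 club cell markers none was called, with Scgb1a1 at 112693 against 141280 FPKM.

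**Figure D3:**
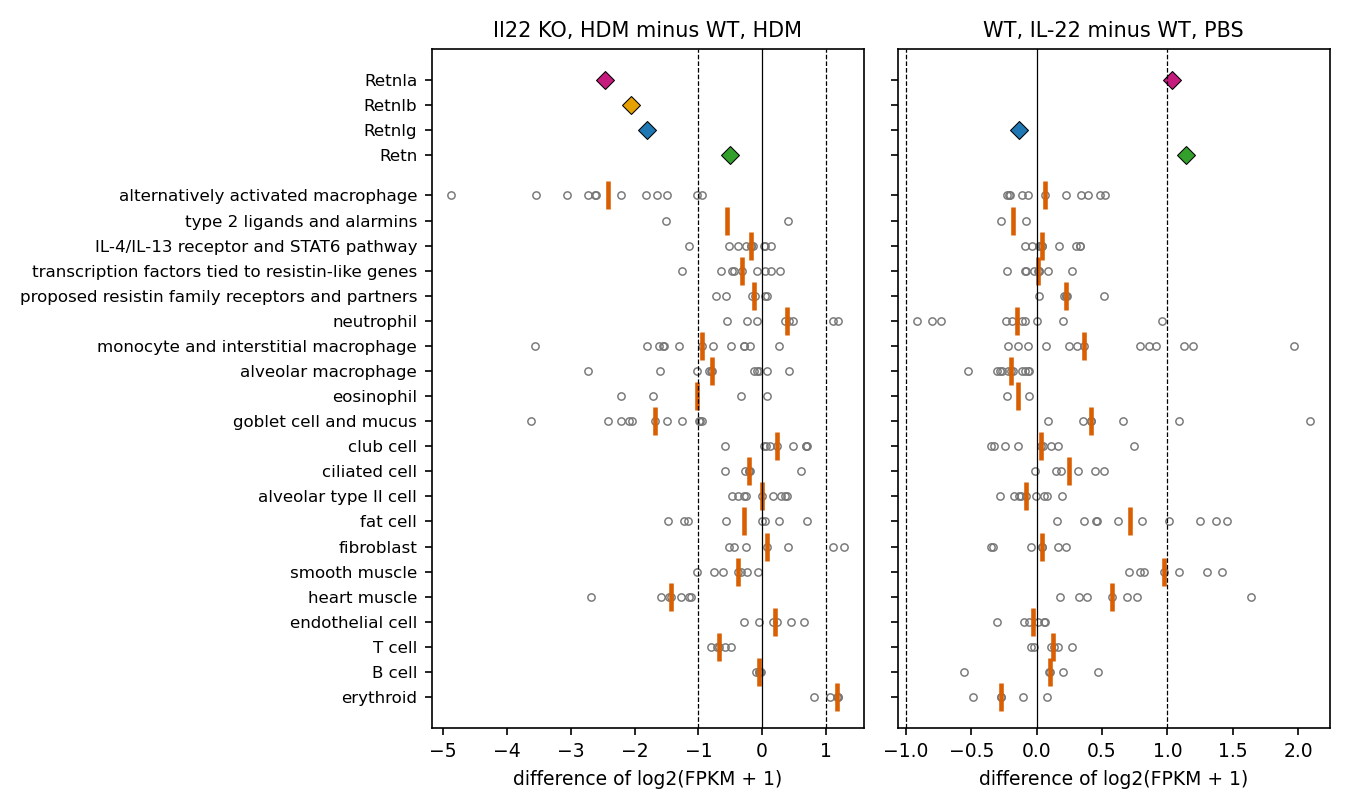
Difference of log2(FPKM + 1) for the measured family members (diamonds), the measured members of each fixed gene list (open circles) and the median of each list (bars), for knockout HDM minus wild-type HDM on the left and IL-22 minus PBS on the right, with scales of their own and dashed lines at 1 in size. On the left Retnla lies at -2.46 and the median of the alternatively activated macrophage genes at -2.41. On the right Retnla lies at 1.04 and that median at 0.06. All lists were chosen with earlier results of these data known.

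Retnlg was called lower in the HDM pair, where its level is uncertain because Retnla was very abundant. Markers of neutrophils, its known source, are given beside it. Of 8 measured neutrophil markers 2 were called higher and none lower in the knockout HDM library, with a median of 0.39. The markers called were the calgranulins S100a8, at 94.96 FPKM in the knockout HDM library against 43.3 FPKM in the wild-type HDM library, and S100a9, at 92.7 against 40.2 FPKM. Csf3r, the receptor for the neutrophil growth factor G-CSF, was at 2.94 against 2.08 FPKM. The other direction was seen in 3 of the 8, none of them called. These were the chemokine receptor Cxcr2, at 2.82 against 3.05 FPKM, the granule protein Ltf, at 17.8 against 21.3 FPKM, and the decoy receptor Il1r2, at 0.641 against 1.40 FPKM. The list summed to 217 FPKM in the knockout HDM library and to 114 FPKM in the wild-type HDM library. Elane, the neutrophil elastase, was at 0 in both, and Ly6g is not used here. The part of neutrophils in the level of Retnlg was not tested.

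In the IL-22 and PBS pair none of 10 measured neutrophil markers was called (median -0.15). All 15 that were found, measured or not, summed to 348 FPKM with IL-22 and 360 FPKM with PBS. Retnlg also differed little, by -0.13. The granule genes Ngp and Camp of maturing neutrophils were at 14.9 against 26.8 FPKM and 11.3 against 19.4 FPKM. Ltf went the other way, at 39.4 FPKM with IL-22 against 19.8 FPKM with PBS, the largest difference of the list in this pair. Of the 10 measured markers 2 lay above 0 and 8 below.

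Fat cells are the known source of Retn in mice. Of their measured markers, 5 of 8 lay on the side of Retn in the HDM pair and all 10 did in the other. In the HDM pair 3 of 8 measured fat cell markers were called lower and none higher (median -0.28). All 13 of the list, measured or not, summed to 77.7 FPKM in the knockout HDM library and 155 FPKM in the wild-type HDM library. Adipoq, the fat cell hormone adiponectin, was at 1.53 FPKM in the knockout HDM library against 4.66 FPKM in the wild-type HDM library. Cfd, the fat cell protease adipsin, was at 22.5 against 54.1 FPKM. Lep, the gene of leptin, was at 0 in both. Of the 8 measured markers 3 lay above 0. Tusc5, now named Trarg1, was at 6.75 against 3.78 FPKM and Adrb3 at 1.69 against 1.23 FPKM. Cidec, a lipid droplet protein, was at 6.87 against 6.61 FPKM. Of the 5 below 0, Lipe lay close to 0, at 12.48 FPKM in both libraries.

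With IL-22 all 10 measured fat cell markers lay above 0 and 4 were called higher, with a median of 0.71. All 13 of the list, measured or not, summed to 495 FPKM with IL-22 and 230 FPKM with PBS. Adipoq was at 20.01 FPKM with IL-22 against 6.65 FPKM with PBS, and Plin1, which coats fat droplets, at 6.90 against 2.32 FPKM. Smooth muscle markers were called higher in 3 of 7 (median 0.98) and heart muscle markers in 1 of 7 (median 0.58) in the same pair. In the HDM pair heart muscle markers were called lower in 7 of 7 (median -1.43), Nppa only through the wild-type HDM library, and smooth muscle markers in 1 of 7 (median -0.37). How much fat, muscle or vessel each lung sample held was not tested as a source of the differences in Retn or Retnla.

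**Figure D4:**
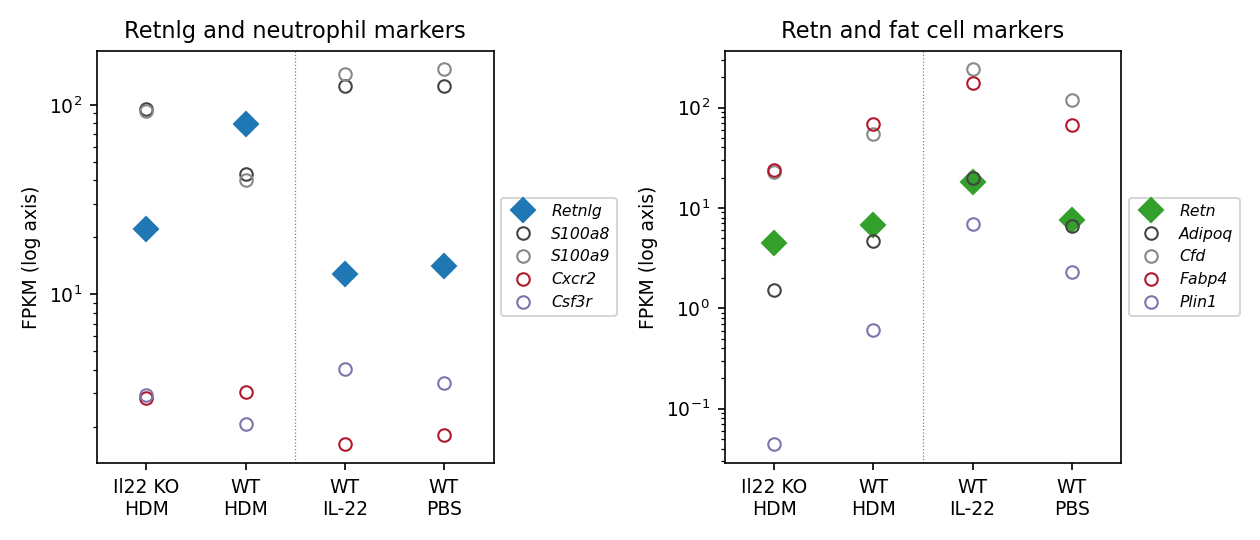
FPKM (log axis) of Retnlg with 4 neutrophil markers (left) and of Retn with 4 fat cell markers (right) in the knockout HDM, wild-type HDM, IL-22 and PBS libraries, 1 point per library; the dotted line parts the 2 tables. Retnlg is highest in the wild-type HDM library at 79.5 FPKM, where S100a8 is at 43.3 and Cxcr2 at 3.05 FPKM, and Retn is highest with IL-22, as is Adipoq at 20.01 FPKM.

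Proteins proposed to bind or relay resistin family members showed no called difference in either pair, over 6 measured genes. Cap1, a receptor proposed for human resistin, was at 125 FPKM in the knockout HDM library against 135 FPKM in the wild-type HDM library. Tlr4, a receptor for bacterial lipopolysaccharide that is also proposed for human resistin, was at 4.96 against 7.85 FPKM. Btk, a kinase reported to bind RELM-alpha in mouse lung, was at 2.30 against 4.47 FPKM. In the IL-22 and PBS pair all 6 lay above 0, with a median of 0.23.

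The remaining lists place the family among other cell types. Erythroid genes were called higher in 4 of 5 measured members in the knockout HDM library (median 1.17), and fibroblast genes in 2 of 7 (median 0.07). No ciliated, endothelial, T cell or B cell marker was called in either pair, and their medians were -0.20, 0.21, -0.68 and -0.04 in the HDM pair. In the IL-22 and PBS pair no erythroid, fibroblast or eosinophil marker was called.

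The promoters of Retnla and Retnlg resemble each other as their coding sequences do. This pair was chosen after both genes were seen to be lower in the knockout HDM library, where Retnlg is uncertain. Whether the promoters bear on these levels was not tested. Sequences are RefSeq's for GRCm38.p6, plus strand, chr16:48842359-48842535 for Retnla and chr16:48872432-48872607 for Retnlg. They end before the first exon annotated in GENCODE M21. Of 175 aligned bases 138 were the same, or 78.9%. Capitals mark the only match to the STAT6 motif, TTC and GAA parted by 4 bases of any kind, in each.
Retnla: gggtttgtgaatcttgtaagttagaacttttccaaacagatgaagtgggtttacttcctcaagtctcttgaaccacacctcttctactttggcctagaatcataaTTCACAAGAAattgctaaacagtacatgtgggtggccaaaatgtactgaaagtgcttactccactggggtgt
Retnlg: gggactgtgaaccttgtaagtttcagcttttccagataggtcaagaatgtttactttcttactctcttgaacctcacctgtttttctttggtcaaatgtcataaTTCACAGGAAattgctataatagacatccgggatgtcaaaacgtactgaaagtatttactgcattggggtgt

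The motif matches lie opposite each other in the alignment. They start 145 bases before the RefSeq start of Retnla and 72 bases before that of Retnlg. Those starts differ from the GENCODE M21 gene starts given above, so the distances of Retnla and Retnlg are not comparable. Of 32851 mouse promoters searched on both strands over the same 250 bases, 5.85% hold a match. The C/EBP motif TTGCNNAA, which does not overlap it, had a match starting 134 bases before the start of Retnla and a match 246 bases before that of Retnlg, and 9.56% of promoters hold it. The motif of other STAT factors, TTC and GAA parted by 3 bases, had no match in either, against 7.02% of promoters. In the 250 bases before Retn none of the 3 motifs had a match. Of the 4 members 3 had a promoter in the RefSeq table, and Retnlb did not. A match is a description of letters and does not show a site in use.

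The differences of the chromosome 16 members were not seen in the nearest measured genes that could be placed by symbol. Of these, Dzip3 alone lies close. Genes listed under an older symbol were not placed, so nearer genes may be missing here and around Retn. Of the 10 nearest genes so placed, 5 on each side, none was called in either pair. Their differences ran from -0.37 to 0.40 in the HDM pair and from -0.23 to 0.23 in the IL-22 and PBS pair. The nearest of them, Dzip3, lies 49.7 kb beyond Retnlg and was at 3.25 FPKM in the knockout HDM library against 2.71 FPKM in the wild-type HDM library. The others on that side lie 825 to 3157 kb away, and those on the Retnlb side 2863 to 3628 kb away. Around Retn 2 of 10 neighbours were called lower in the knockout HDM library and none in the other pair. These were Fcer2a, the low-affinity IgE receptor, at 2.69 against 9.41 FPKM, and the lectin receptor Cd209d, at 2.22 against 6.42 FPKM.

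The genes whose pattern was most like that of a called member were sought among 11543 named genes measured in both pairs, by the distance between their 2 differences and those of the member. For Retnla the 5 nearest were Reg3g, Cxcl10, Agr2, Ccl9 and Arg1, at distances of 0.36 to 0.53. Reg3g, an antibacterial lectin of epithelium, was the closest, with differences of -2.28 in the HDM pair and 1.34 in the IL-22 and PBS pair. Agr2, which helps to fold mucins, had differences of -2.21 and 0.66. For Retnlg the 5 nearest were Apol9b, Rtp4, Clec7a, Slc5a1 and Top2a, at 0.05 to 0.13. Clec7a, the beta-glucan receptor of myeloid cells, had differences of -1.82 and -0.22. For Retn they were Gp2, Kcnmb1, Stap1, Fyb and Eno1, at 0.05 to 0.15. None of the fat cell markers was among them, but Plin1, Plin4, Lep, Acvr1c and Ucp1 were not measured in both pairs and could not be. The source of Retn was not tested. Retnlb was left out because it was not measured in the IL-22 and PBS pair. These names rest on 4 libraries and change with the settings.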

How the data were processed

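Lung RNA of 4 libraries, 1 per group, was taken from 2 deposited tables of FPKM per gene, 1 for the HDM pair and 1 for the IL-22 and PBS pair. The authors used CASAVA 1.8.2, TopHat2, Cufflinks 2.2.1 and the build mm10, per the submitters' processing notes; settings, and how libraries were scaled, are not given here. Groups came from the sample titles. Rows were joined on symbol and accession, 25 symbols turned into dates were restored from accessions, and rows of 1 symbol were added, which left 23284 genes of 23746 rows.

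Reads were estimated from the steps of low values, as FPKM times the GENCODE M21 transcript length less 200 bases, with the most frequent value taken as 1 read. Depth was fitted on transcripts longer than 700 bases. Retnla, Retnlb and Retnlg, at 599, 696 and 593 bases, are shorter, so their estimated reads lie outside the fitted range of lengths. Of low values 63.0 to 65.8% lay no more than 0.1 from a whole number of reads, against 20% for evenly spread values. The length of Retn used, 1139 bases, is that of its listed accession. FPKM are not counts, so no count test was run, and 1 library per group allows no test. A call needed a difference of log2(FPKM + 1) of at least 1 in size and a mean of at least 1 FPKM. The members, the 21 gene lists and the rules were chosen with earlier results of these data known. Named genes were the 4 members, the 5 nearest in pattern for each called member measured in both pairs, which leaves out Retnlb, and up to 4 list members with the largest differences or a role tied to the family. Further list members, neighbours and figure genes were chosen after their values were seen. The depth fit and the calls were tested on simulated reads, drawn with the same length rule and without spread between animals. Only transcripts longer than 700 bases were simulated, so Retnla, Retnlb and Retnlg were not covered. Alternatives were another pseudocount, 3 scalings, other filters, another size rule and other measures of likeness. The software was scipy 1.17.1, pandas 2.3.3 and numpy 2.4.6 under Python 3.11.15, with figures by matplotlib 3.10.9.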

Additional observations from a re-analysis of the deposited data

How the results depend on the processing

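Over 4 alternatives for 4 members in 2 pairs, 31 of 32 values kept their call. The exception was Retnla with IL-22, at 0.99 with a median ratio of 1. No value of a member changed sign. With the same total it was 1.14. In the HDM pair Retnla was at -2.49 with a median ratio of 1 and at -2.48 with the same total without Scgb1a1 and the members. Retnlb was at -5.03 in the HDM pair with a pseudocount of 0.1, which moves a gene at 0 most, and in the other pair at 1.27 with that pseudocount and at 0.18, 0.20 and 0.20 under the 3 scalings, on 2 reads. A mean of at least 5 FPKM leaves Retnlb out of the HDM pair too.

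Counts over all genes depended on the rule. In the HDM pair a pseudocount of 0.1 gave 131 higher and 488 lower genes in place of 73 and 322, a mean of at least 5 FPKM gave 193 lower, and a fold of 1.5 gave 429 higher and 852 lower. In the other pair the pseudocount gave 132 higher in place of 79, and the fold of 1.5 gave 259 higher and 61 lower in place of 79 and 25. Among list genes the fold of 1.5 gave 15 higher in place of 8 in the HDM pair, and 27 higher and 3 lower in place of 13 and 0 in the other, where the pseudocount gave 1 lower. The share of calls that were higher in the HDM pair was 18.5%, and 33.5% at a fold of 1.5. Scaling to the same total moved the median of all genes to 0.13 in the IL-22 and PBS pair, against 0.04 as deposited.

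Of the 5 genes nearest to Retnla, Retnlg and Retn, 3, 2 and 0 were shared at a pseudocount of 0.1, and 0, 0 and 1 when levels were set across both tables. The causes were not tested. No paired analysis was possible because each group is 1 library. For Retnlb 3 reads are 0.209 to 0.303 FPKM, so lower levels cannot be told from 0.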
